A study of Mus musculus with 24 samples.

Results

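The miR-29 and miR-30 families were followed in mouse liver RNA as 8 mature miRNAs. These were the 3p arms mmu-miR-29a-3p, mmu-miR-29b-3p and mmu-miR-29c-3p and the 5p arms mmu-miR-30a-5p, mmu-miR-30b-5p, mmu-miR-30c-5p, mmu-miR-30d-5p and mmu-miR-30e-5p, written without the species prefix below. They were picked out by name among the 1881 mouse miRNAs on the array. All 8 were among the 631 miRNAs that were detected on at least 5 of the 24 arrays and tested.

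A mature miRNA guides Argonaute to target messages, which it finds chiefly through its seed, bases 2 to 8 from the 5′ end. Members of a family share the seed and therefore many targets. The miR-29 family is known for repressing collagens and other matrix genes and for falling in fibrotic liver, where hepatic stellate cells lay down matrix. The miR-30 family is known for roles in bile duct development, autophagy and hepatic lipid handling.

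The study asked how RNA degradation and DNA carry-over act on miRNA array profiles. Livers of 3 male mice, numbered 7, 9 and 10, gave 8 arrays each, with 1 array of every mouse in each group, so a group holds 3 separate animals. The strain and age of these 3 mice are not given in the sources used here, and no transgene or drug is named for them. Total RNA including small RNAs came from tissue preserved at once (0 h) or left for 96 h at room temperature, and was prepared with or without an on-column DNase digestion, which makes 4 groups. A column kit that loses most small RNAs, used with DNase on unstored tissue, gave the RNA called depleted here. The other 4 groups are this RNA as it was, and the same RNA incubated with 0 U, with 0.026 U or with 0.67 U of RNase. By the methods of the study, incubated RNA was then isolated again, with the kit used for RNA including small RNAs. The depletion is not complete, so these groups are a model of RNA with few, not without, small RNAs.

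Mature sequences were matched by name in RefSeq (GRCm38.p6) for 6 of the 8 members. They are shown because the probes must tell apart members that differ by few bases. The seed is in capitals.
miR-29a-3p: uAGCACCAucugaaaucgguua
miR-29b-3p: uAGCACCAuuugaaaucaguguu
miR-29c-3p: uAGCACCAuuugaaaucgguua
miR-30a-5p: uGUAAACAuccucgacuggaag
miR-30c-5p: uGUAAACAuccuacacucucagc
miR-30e-5p: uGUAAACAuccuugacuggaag

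These members carried 2 seeds, 1 per family. With positions counted from 1 at the 5′ end, miR-29a-3p and miR-29c-3p were identical at 21 of 22 bases and differed by C10U. In the same way miR-30a-5p and miR-30e-5p were identical at 21 of 22 bases and differed by C13U. The first 22 bases of miR-29b-3p matched miR-29a-3p at 18 positions, with the differences C10U, G18A, U21G and A22U. Between miR-30a-5p and miR-30c-5p 17 of 22 bases matched. All these differences lie 3′ of the seed. Cross-hybridization between such close members was not tested, so the values of miR-29a-3p and miR-29c-3p, and of miR-30a-5p and miR-30e-5p, are uncertain to that extent.

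The hairpins lie in pairs. miR-29a-3p is encoded at chr6:31062673-31062694 on the minus strand, close to 1 copy of miR-29b-3p at chr6:31063025-31063047 on the same strand. The other copy of miR-29b-3p, at chr1:195037091-195037113 on the plus strand, neighbours miR-29c-3p at chr1:195037600-195037621, both within the span of the noncoding gene A330023F24Rik. miR-30a-5p is at chr1:23272274-23272295 on the plus strand. Of the copies of miR-30c-5p, 1 is at chr1:23291714-23291736 on the plus strand and the other at chr4:120769584-120769606 on the minus strand. The latter lies beside miR-30e-5p at chr4:120772660-120772681, and both are within the span of Nfyc, which encodes a subunit of the transcription factor NF-Y. Copies of 1 mature sequence give 1 signal on the array. The only other miRNA of the array with either seed among those with a sequence was miR-384-5p, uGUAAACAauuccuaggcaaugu, which was detected on 0 of 24 arrays.

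Signals are given in intensity units before normalization. Changes are on the glog2 scale of the variance stabilizing normalization, which is close to log2 for bright miRNAs and compressed near the background. The RNA integrity number (RIN), which is higher for more intact RNA, averaged 8.93 and 8.80 in the 0 h groups and 2.33 and 2.37 in the 96 h groups. In depleted RNA it averaged 9.30 untreated, 9.10 at 0 U, 6.63 with the lower RNase dose and 2.63 with the higher. The summed signal of detected miRNAs ranged from 55237 to 163493 on the 0 h arrays and from 187378 to 362324 on the 96 h arrays. It ranged from 7125 to 10043 on the depleted arrays untreated or at 0 U, and from 36325 to 177642 with RNase. The labels of mouse 9 disagree on which array had which RNase dose, and the descriptions were followed. The hepatocyte markers miR-122-5p, miR-192-5p and miR-194-5p were detected on every array, and the neuronal markers miR-124-3p and miR-9-5p on none.

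The 3 hepatocyte markers summed to 7655 to 13355 intensity units at 0 h with DNase, to 3546 to 6741 at 96 h with DNase and to 2489 to 3207 in untreated depleted RNA. In these groups the means were 10086.5, 4275.1 and 2704.8 for miR-122-5p, which made up most of the sums. They were 795.6, 433.0 and 25.1 for miR-192-5p and 352.8, 115.5 and 19.2 for miR-194-5p. The 4 blood cell markers summed to 264 to 530, 164 to 231 and 5.93 to 12.7 in the same groups, with miR-451a at means of 310.0, 181.6 and 5.41. At 96 h with DNase miR-144-3p was detected on 0 of 3 arrays and miR-142a-3p on 1 of 3. Both were detected on 0 of 3 untreated depleted arrays. The endothelial miR-126a-3p was at 273 to 471, 50.8 to 122 and 14.9 to 25.1. The 2 mesenchymal markers summed to 15.9 to 42.6, 15.6 to 31.2 and 1.04 to 1.71, with miR-143-3p at a mean of 21.2 at 0 h with DNase and 5.04 at 96 h (detected on 1 of 3 arrays) and miR-145a-5p at 4.54 and 16.2 (detected on 2 of 3). Of the 3 muscle and heart markers, miR-133a-3p was detected on all 6 arrays at 96 h and on no 0 h array, and miR-1a-3p and miR-208a-3p on no array. With storage, fewer cells of a type and less RNA per cell cannot be told apart in whole liver RNA. Untreated depleted RNA came from unstored parts of the same livers, prepared with another kit than the 0 h RNA. The part of these markers in the results on the members was not tested.

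**Figure D1:**
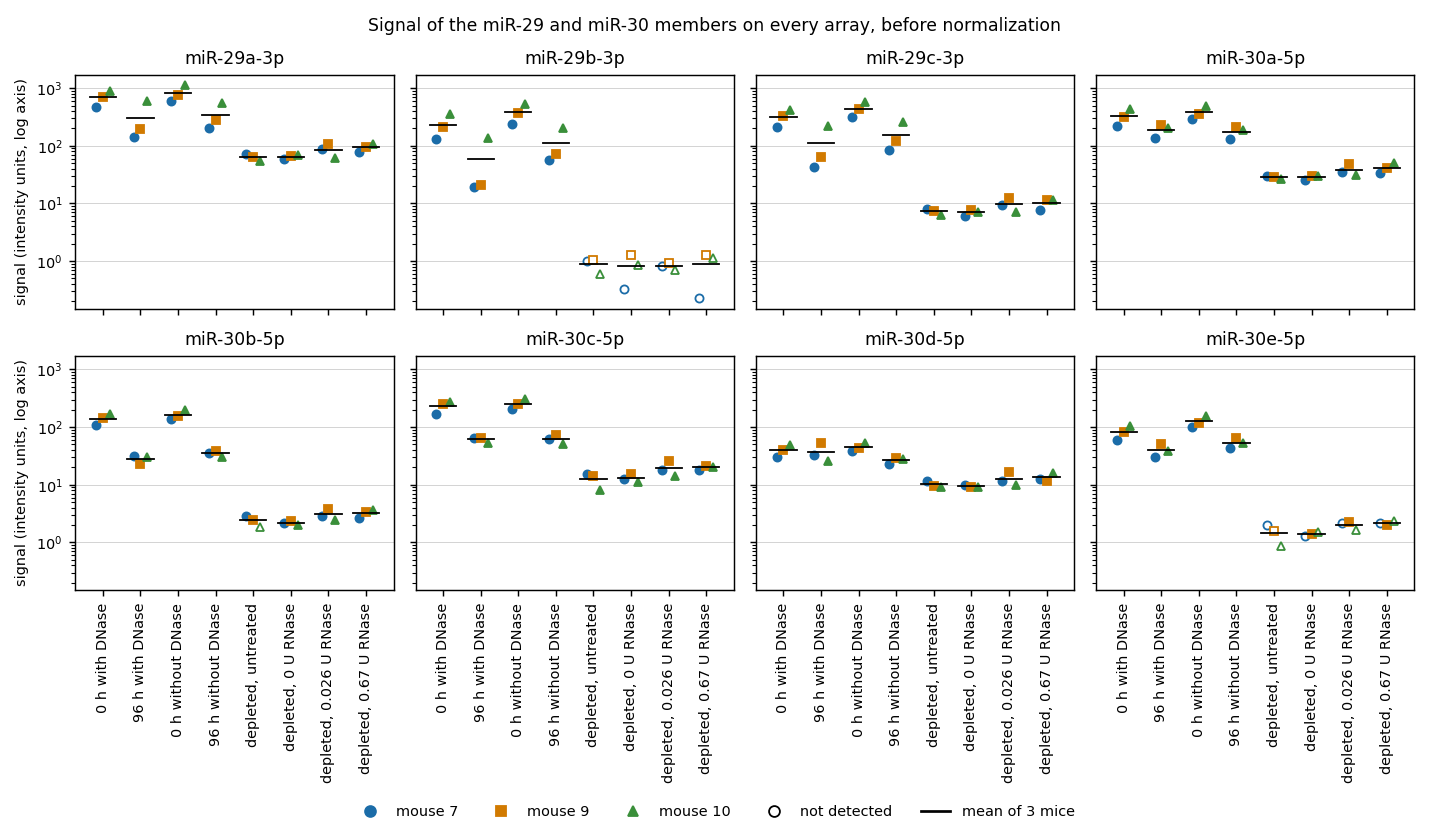
Signal of each member in intensity units (log axis) on every array, by group, with 1 symbol per mouse, open symbols where the miRNA was not detected, and a line at the mean of 3 mice. The 0 h groups are the highest for all 8 members, and miR-29b-3p is not detected on any of the 12 depleted arrays.

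Storage of the tissue for 96 h lowered all 8 members. In DNase-treated RNA the falls ran from 1.92 (miR-30d-5p) to 4.25 (miR-29b-3p) on the glog2 scale, with SE between 0.22 and 0.62 and adjusted p between 2.06e-10 and 3.22e-06 (limma, two-sided, n = 3 against 3). Of all 631 miRNAs 21.6% were called lower and 60.4% higher, against 8 of 8 members lower. These shares depend on the detection filter, since without it 559 of all 1881 miRNAs were called lower and 656 higher. The median change was -3.44 over the members and 2.47 over the 631 miRNAs, but 0.00 over all 1881 without the detection filter. Without DNase the falls ran from 2.40 to 3.84 with adjusted p between 4.02e-10 and 2.10e-05, and 8 of 8 members were again called lower against 23.0% of all miRNAs (60.5% were called higher). There the median was -3.17 over the members and 2.16 over the 631. Without the filter 519 of all 1881 miRNAs were called lower there and 617 higher.

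miR-29a-3p, whose hairpin pairs with a copy of miR-29b, gave 468, 705 and 910 intensity units in mice 7, 9 and 10 at 0 h with DNase and 141, 198 and 591 at 96 h. Mouse 10 was the highest at both times, and its 96 h array lay above the 0 h array of mouse 7, so the unnormalized groups overlapped. On the glog2 scale miR-29a-3p fell by 3.21 (SE 0.48, adjusted p = 3.22e-06 by limma). Without DNase the signals were 593, 769 and 1127 at 0 h and 202, 278 and 546 at 96 h, with no overlap.

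miR-29b-3p, known also for repressing de novo DNA methyltransferases, gave 129, 213 and 353 units at 0 h with DNase and 19.2, 21.1 and 136 at 96 h. Again mouse 10 was highest, and its 96 h signal passed that of mouse 7 at 0 h. Its fall of 4.25 (SE 0.62, adjusted p = 2.47e-06 by limma) placed miR-29b-3p so low that 16 of 631 miRNAs fell further. Without DNase the signals went from 240, 364 and 537 to 57.3, 73.0 and 202, and the groups did not overlap.

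miR-29c-3p, which shares a locus with the other copy of miR-29b, gave 215, 326 and 420 units at 0 h with DNase against 42.5, 62.8 and 225 at 96 h. The fall of 3.67 (SE 0.51, adjusted p = 1.34e-06 by limma) lay between those of the other two members, and mouse 10 at 96 h was just above mouse 7 at 0 h. Without DNase the signals were 315, 441 and 567 at 0 h and 84.5, 120 and 259 at 96 h. In each miR-29 member, mice 7 and 9 stood together at 96 h with DNase and mouse 10 stood well above them.

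miR-30a-5p, known for repressing the autophagy factor beclin, gave 223, 319 and 437 units at 0 h with DNase and 136, 231 and 207 at 96 h. It fell by 2.57 (SE 0.31, adjusted p = 1.87e-07 by limma), although the unnormalized groups overlapped, with mouse 9 at 96 h above mouse 7 at 0 h. miR-30e-5p, the member 1 base away from it, went from 58.9, 82.3 and 105 units to 30.9, 51.9 and 38.6, without overlap. Its fall was 2.80 (SE 0.27, adjusted p = 1.47e-08 by limma).

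miR-30b-5p gave 108, 145 and 169 units at 0 h with DNase and 31.7, 22.6 and 30.7 at 96 h. These groups were far apart, and the fall of 4.06 (SE 0.27, adjusted p = 2.06e-10 by limma) was the deepest of the miR-30 family. miR-30c-5p, known for lowering lipoprotein assembly in hepatocytes, went from 166, 252 and 275 units to 65.6, 65.5 and 54.2, a fall of 3.67 (SE 0.30, adjusted p = 2.38e-09 by limma). In intensity units mouse 10, highest for the miR-29 members, was the lowest of the 3 mice for miR-30c-5p at 96 h, but on the glog2 scale it was the highest, at 4.73 against 4.56 and 4.35.

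miR-30d-5p behaved least like the rest. Its unnormalized signals were 30.9, 39.8 and 48.3 at 0 h with DNase and 32.5, 53.5 and 26.3 at 96 h, so the groups overlapped and their means differed by 1.06-fold. After normalization it fell by 1.92 (SE 0.22, adjusted p = 9.05e-08 by limma). Without DNase its signals went from 38.5, 44.0 and 53.4 to 23.0, 28.7 and 27.98, a 1.70-fold difference of the means, and the groups did not overlap.

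The size of every fall depends on how the arrays are scaled. Without normalization the 0 h means were 1.06 to 4.96 times the 96 h means with DNase and 1.70 to 4.64 times without it, with miR-30b-5p highest and miR-30d-5p lowest in both. All 8 members changed downward under each of 9 scalings in both settings, but with DNase the call of miR-30d-5p was lost under 2 of them and that of miR-30a-5p under 1, and without DNase that of miR-30d-5p under 1. The changes over these scalings ran from -5.98 to -2.49 for miR-29b-3p and from -3.70 to -0.13 for miR-30d-5p. Without mouse 10 the falls of the miR-29 members with DNase were larger, 3.83 for miR-29a-3p, 5.02 for miR-29b-3p and 4.38 for miR-29c-3p.

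**Figure D2:**
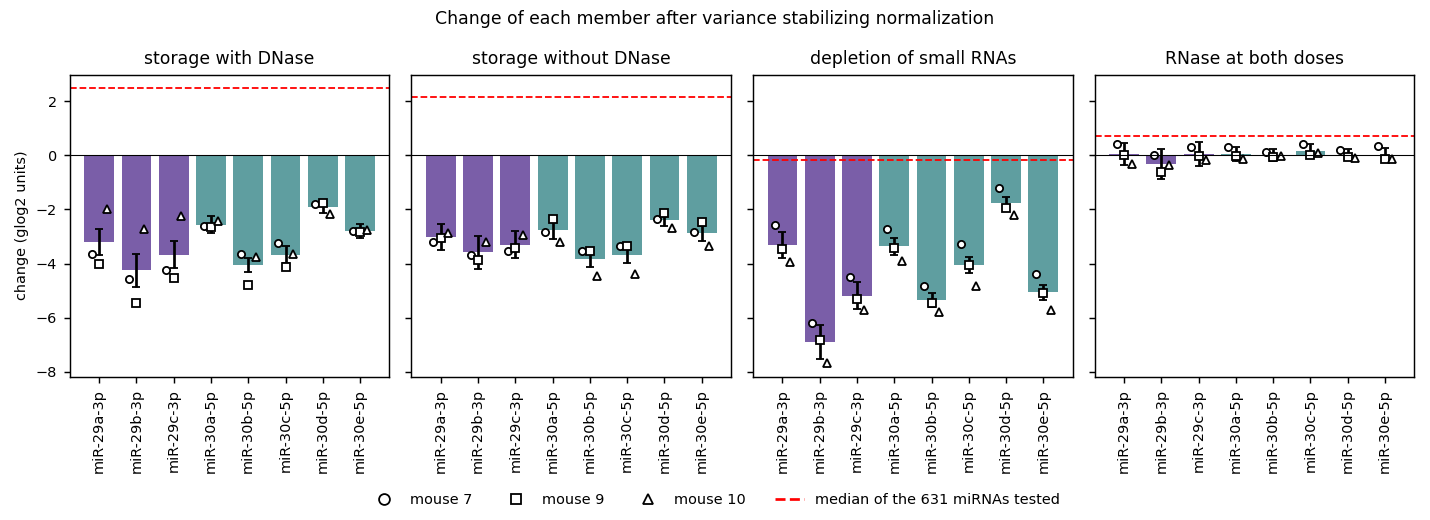
Change of each member on the glog2 scale in 4 comparisons, with bars for the limma estimate, error bars of 1 SE, symbols for the 3 mice and a dashed line at the median of the 631 miRNAs tested. Bars lie below 0 for all 8 members with storage and depletion, and near 0 with RNase.

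Within each family the members fell by different amounts on the glog2 scale, in an order that the 3 mice shared but that did not hold under every scaling. miR-29b-3p fell more than miR-29a-3p by 1.04 ± 0.36 glog2 (SD, n = 3 mice) with DNase and by 0.56 ± 0.24 without. It also fell more than miR-29c-3p in 3 of 3 mice in both settings, by 0.58 ± 0.29 and 0.29 ± 0.13. In the miR-30 family, miR-30b-5p fell more than miR-30a-5p by 1.50 ± 0.58 with DNase and by 1.05 ± 0.29 without, again in 3 of 3 mice. Between miR-30b-5p and miR-30d-5p the gap was 2.15 ± 0.79 and 1.44 ± 0.28. The close pair miR-30a-5p and miR-30e-5p differed by 0.23 ± 0.09 and 0.09 ± 0.07. Under normexp with quantile normalization the order turned, with changes of -3.65 for miR-29a-3p, -2.64 for miR-29b-3p, -2.67 for miR-30a-5p and -2.26 for miR-30b-5p with DNase, while under the other 8 scalings miR-29b-3p fell more than miR-29a-3p and miR-30b-5p more than miR-30a-5p. These differences are given without a test.

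Measures taken within an array do not depend on scaling between arrays. The 8 members held 2.42 ± 0.148% (SD, n = 3) of the signal of detected miRNAs at 0 h with DNase and 0.351 ± 0.264% at 96 h. The groups did not overlap, since the highest 96 h array was at 0.656% and the lowest 0 h array at 2.26%. Without DNase the shares were 1.82 ± 0.327% and 0.440 ± 0.102%. The denominator rose as well, because the summed signal of detected miRNAs was higher at 96 h.

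The summed miR-29 signal over the summed miR-30 signal set mouse 10 apart. Because probes differ in brightness, the ratio has meaning only between arrays. At 0 h with DNase it was 1.39, 1.49 and 1.63 in mice 7, 9 and 10, and at 96 h 0.683, 0.666 and 2.66. The ratio thus fell in mice 7 and 9 and rose in mouse 10. Without DNase it went from 1.48, 1.70 and 1.86 to 1.17, 1.14 and 2.87, with the same split. In the 12 depleted arrays it stayed between 1.15 and 1.45. Mouse, slide and scan cannot be told apart, and what set mouse 10 apart was not tested.

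The probes of miR-29a-3p also parted with storage. The probe A_54_P2488 gave between 29.4% and 30.5% of the signal of miR-29a-3p on the 6 arrays at 0 h, and between 29.2% and 30.7% on the 12 depleted arrays. On the 6 arrays at 96 h it gave between 12.6% and 22.6%, below every other array. In the storage comparison with DNase the log2 ratio of this probe was -1.84 and that of the other probe, A_54_P2489, -0.95. Both probes have 15 spots, and no test was made. The value of miR-29a-3p at 96 h therefore depends on which probe is read.

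**Figure D3:**
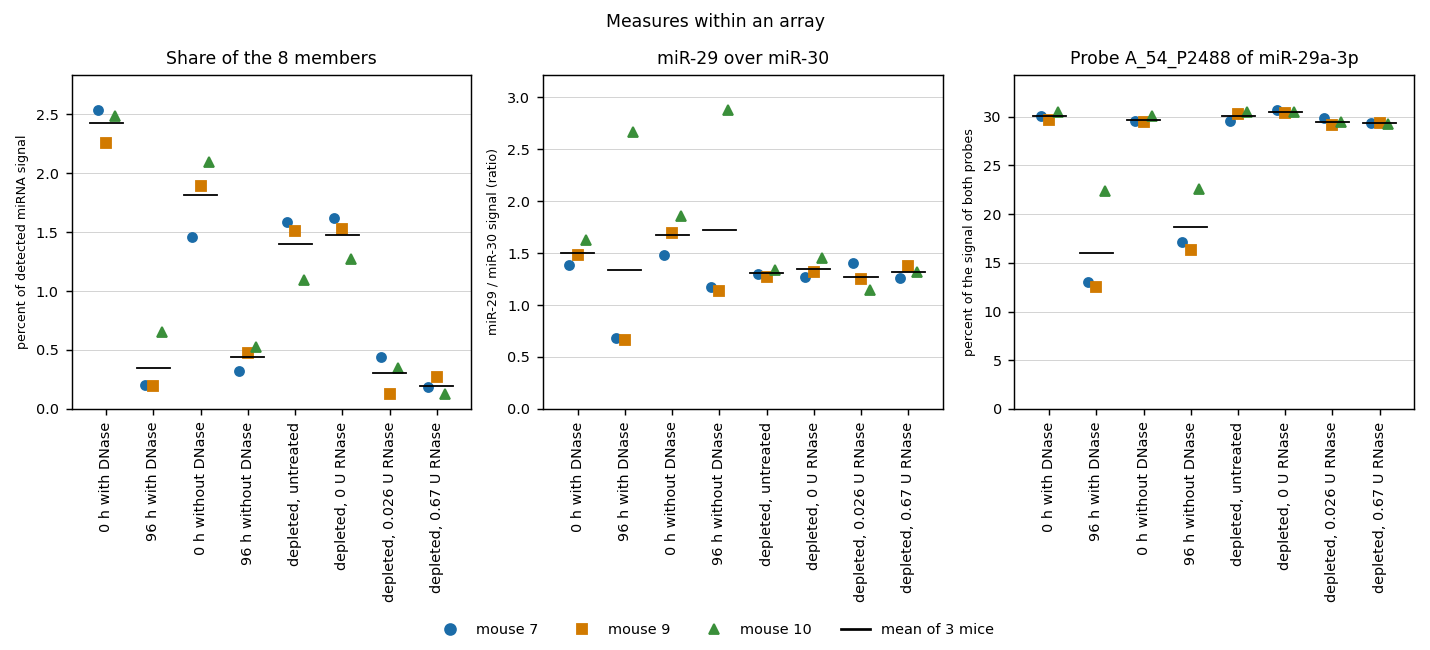
Percent of the detected miRNA signal held by the 8 members, ratio of summed miR-29 to summed miR-30 signal, and percent of the miR-29a-3p signal from the probe A_54_P2488, on every array with 1 symbol per mouse and a line at the mean. Arrays at 96 h have low member shares, mouse 10 has the highest ratios there at 2.66 and 2.87, and the probe share is at most 22.6% at 96 h against at least 29.2% elsewhere.

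Leaving out DNase, which tests DNA carry-over, gave no member a call. At 0 h 0 of 8 members and 0.00% of all miRNAs were called, and the members' changes ran from 0.13 to 0.74 with adjusted p between 0.873 and 0.991 (limma). On the glog2 scale 7 of 8 members, measured on the same arrays, were higher without DNase in 3 of 3 mice, and miR-30c-5p in 2 of 3. Of all 631 miRNAs 259 had a change below 0, against 0 of 8 members. The median change was 0.24 over the members and 0.09 over the 631 miRNAs. This direction depends on the scaling. Under quantile normalization, and under normexp with quantile normalization, 4 members lay above 0 and 4 below. Of the 8 members 1, miR-30e-5p, had an unadjusted p below 0.05, against 30 of all 631 miRNAs. No miRNA of 631 passed after adjustment. The signals of miR-30e-5p were 58.9, 82.3 and 105 with DNase and 101, 120 and 155 without, so the unnormalized groups overlapped. At 96 h 0 of 8 members were called against 10.8% of all miRNAs, and the members' changes ran from -0.29 to 1.40. The largest was that of miR-29b-3p, at 1.40 (SE 0.62, adjusted p = 0.186 by limma). It was the 1 member with an unadjusted p below 0.05, against 134 of all 631 miRNAs. The change of miR-29b-3p was 1.74, 2.32 and 0.12 in mice 7, 9 and 10. Without mouse 10 miR-29b-3p changed by 2.03 (adjusted p = 0.0059 by limma) and miR-29c-3p by 1.36 (adjusted p = 0.0235), and both were called. In that fit 2 of 8 members were thus called higher, while 80 of all 631 miRNAs were called higher and 72 lower. The difference between the storage changes with and without DNase ran from -0.48 to 0.66 over the members. For it 0 of 8 members were called against 1.11% of all miRNAs, and the members' adjusted p ran from 0.529 to 0.990 (limma). An unadjusted p below 0.05 was found for 0 members and for 87 of all 631 miRNAs.

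Depletion of small RNAs lowered all 8 members relative to 0 h RNA with DNase. Falls ran from 1.78 (miR-30d-5p) to 6.89 (miR-29b-3p) on the glog2 scale, with adjusted p between 4.86e-12 and 9.52e-06 (limma, two-sided, n = 3 against 3). Against 8 of 8 members, 24.4% of all miRNAs were called lower and 5.39% higher. The median was -4.56 over the members and -0.17 over all 631. Of these 631, 6 fell further than miR-29b-3p and 140 further than miR-30d-5p.

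miR-29b-3p gave 1.002, 1.05 and 0.588 units in mice 7, 9 and 10 in untreated depleted RNA and was not detected there, so its fall after variance stabilizing normalization is a bound of at least 107-fold. Over the 9 scalings its change ran from -7.81 to -2.95. miR-29a-3p stayed well above background at 71.9, 63.2 and 55.3 units, with 0 h signals 10.9 times as high in the mean. miR-29c-3p was at 8.15, 7.42 and 6.44, and its 0 h mean was 43.7 times as high. The signals of the 3 miR-29 members thus fell to very different extents. In every mouse the signal of miR-29b-3p fell more than that of miR-29c-3p, and this more than that of miR-29a-3p.

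In the miR-30 family the depleted signals were 30.2, 28.5 and 26.7 for miR-30a-5p in mice 7, 9 and 10. miR-30b-5p gave 2.88, 2.50 and 1.87, the last not detected. miR-30c-5p gave 15.4, 14.1 and 8.05. For these members the 0 h mean was 11.4, 58.2 and 18.5 times as high, in that order. miR-30e-5p was not detected at 1.98, 1.58 and 0.855 units, so its fall is a bound of at least 31.8-fold after the same normalization, with changes from -5.77 to -1.94 over the scalings. The signal of miR-30d-5p fell least, to 11.8, 9.58 and 9.11 units, and its 0 h mean was 3.89 times as high. No depleted array reached a 0 h array for any member. The same was not counted for the other miRNAs, so whether this separation is unusual is not known. For miR-30d-5p the change turned to 0.30 (adjusted p = 0.586 by limma) when arrays were scaled to the 75th percentile of the commonly detected miRNAs, those with a detection flag on each of the 24 arrays.

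The close pairs also parted in depleted RNA. miR-29c-3p fell more than miR-29a-3p by 1.86 ± 0.06 glog2 (SD, n = 3 mice) with depletion. With storage of DNase-treated RNA the gap was 0.46 ± 0.16. The gap between miR-29c-3p and miR-29a-3p was larger with depletion in 3 of 3 mice, but both comparisons share the 0 h arrays and no test was made. miR-30e-5p, not detected in untreated depleted RNA, also fell more than miR-30a-5p in 3 of 3 mice, by a gap whose size cannot be given there.

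Incubation of depleted RNA at 0 U, together with the repeated isolation, moved the members by 0.16 to 0.36 (adjusted p = 0.992 for each by limma). Of the members 0 of 8 were called, against 1.74% of all miRNAs. On the glog2 scale mice 9 and 10 were higher and mouse 7 lower for all 8 members. Of all 631 miRNAs 200 had a change below 0, against 0 of 8 members. The median change was 0.22 over the members and 0.16 over all 631 miRNAs. The direction depends on the scaling, since 0 members lay above 0 under spike-in scaling and 3 without normalization. No member had an unadjusted p below 0.05, which makes 0 of 8, against 48 of all 631 miRNAs.

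RNase treatment of depleted RNA, both doses against 0 U, left the members close to 0, with changes from -0.33 (miR-29b-3p, not detected in any of these groups) to 0.16 (miR-30c-5p). No member was called, with adjusted p between 0.703 and 0.998 (limma) and SE between 0.19 and 0.54, while 44.7% of all miRNAs were called higher. An unadjusted p below 0.05 was found for 0 members and for 319 of all 631 miRNAs. Without the detection filter 345 of all 1881 miRNAs were called higher and 32 lower. The median was 0.02 over the members and 0.69 over all miRNAs kept by the detection filter. Without that filter the median over all 1881 was -0.16, below that of the members. Whether the members lay below or above the other miRNAs thus depended on the filter. At the lower dose 0 members were called against 36.8% of all miRNAs and at the higher dose 0 against 45.3%.

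The unnormalized signals of miR-29a-3p were 59.0, 67.2 and 68.8 in mice 7, 9 and 10 at 0 U. With 0.026 U they were 88.0, 109 and 60.3, and with 0.67 U 79.0, 96.5 and 109. The 0 U and 0.67 U groups did not overlap, but mouse 10 with 0.026 U lay among the 0 U arrays. miR-30a-5p gave 25.6, 29.8 and 29.5 at 0 U, 34.9, 48.7 and 31.5 at 0.026 U and 33.4, 41.4 and 49.6 at 0.67 U, so every RNase array was above the 0 U arrays before normalization. For miR-30d-5p the signals were 9.77, 9.28 and 8.98, then 11.7, 16.6 and 9.82, then 12.6, 11.8 and 15.8.

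This result is set by the scaling. Of 9 scalings, 75th percentile scaling on the commonly detected miRNAs called 8 members lower, quantile normalization 6, variance stabilization of the kept miRNAs alone 3 and normexp with quantile normalization 2. In the same order these scalings called 184, 146, 214 and 21 of all 631 miRNAs lower and 157, 158, 167 and 38 higher. The other 5 scalings called no member, and 4 of them left 7 members at or above 0. The share of detected signal held by the members fell from 1.47 ± 0.181% (SD, n = 3) with 0 U to 0.303 ± 0.162% with 0.026 U and 0.192 ± 0.0714% with 0.67 U, while the summed signal of detected miRNAs rose. The groups at 0 U and at either dose did not overlap in that share.

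**Figure D4:**
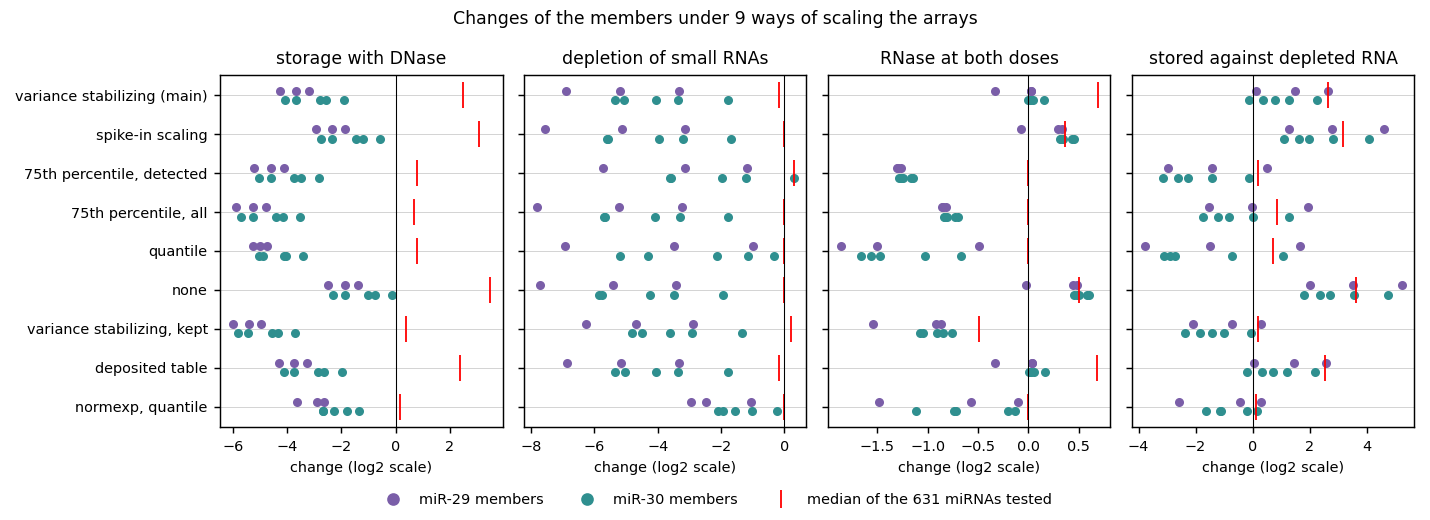
Changes of the miR-29 and miR-30 members on a log2 scale under 9 scalings of the arrays (rows) in 4 comparisons, with a mark at the median of the 631 miRNAs tested. With storage every member lies below 0 in each row, while with RNase and in stored against depleted RNA the side of 0 changes with the scaling.

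Stored and depleted RNA were also compared directly, as 96 h RNA with DNase against untreated depleted RNA. Here 4 of 8 members were called higher in stored RNA, against 61.6% of all miRNAs called higher and 7.77% lower. Without the detection filter 661 of all 1881 miRNAs were called higher and 552 lower. The members called were miR-29b-3p at 2.64 (adjusted p = 0.000644 by limma, at least 5.64-fold on this scale), miR-29c-3p at 1.50 (adjusted p = 0.0114), miR-30b-5p at 1.29 (adjusted p = 0.000225) and miR-30e-5p at 2.26 (adjusted p = 2.32e-07, at least 4.57-fold on this scale). The other members lay between -0.13 (miR-30d-5p) and 0.79 (miR-30a-5p). The median was 1.04 over the members and 2.65 over all miRNAs kept by the detection filter. Over all 1881 without that filter it was 0.05, below that of the members, so this order too depended on the filter. Mouse 10 gave the highest value for 7 of the 8 members. Without it 2 members were called, both higher, while 383 of the 631 miRNAs were called higher and 76 lower. The direction rests on the scaling, since 6 members were called lower under 75th percentile scaling on the commonly detected miRNAs, and 8 higher without normalization. Of all 631 miRNAs that scaling called 228 lower and 243 higher, and no normalization called 10 lower and 551 higher.

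Across the 8 groups both 0 h groups stood at the top for every member, and the difference between them passed no test (adjusted p from 0.873 to 0.991, limma). The step from 0 h with DNase to the next group down passed the test for all 8, with adjusted p from 6.86e-10 to 0.000266. That next group was picked for each member from the same means. How many of the other miRNAs pass such a step was not counted. Below the 0 h groups the orders parted. For miR-30d-5p both 96 h groups were the lowest of all, at 3.79 and 3.50 glog2 against 3.92 to 4.13 in depleted RNA, but the step down from untreated depleted RNA did not pass (adjusted p = 0.59 by limma). Unnormalized, the 96 h means of miR-30d-5p, 37.4 and 26.6 units, lay above all depleted means, 9.34 to 13.4, and spike-in scaling put 96 h with DNase 1.09 above untreated depleted RNA. On the glog2 scale the 96 h group with DNase stood above every depleted group for miR-29b-3p, miR-29c-3p, miR-30b-5p and miR-30e-5p. The adjusted p for the step was 0.00108, 0.0385, 0.00143 and 2.85e-06 (limma). This order also rests on the scaling. Against untreated depleted RNA the change lay below 0 under 0, 5, 4 and 2 of 9 scalings for these members, in that order. Neighbours among the 4 depleted groups did not differ beyond their spread for any member.

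The opposite arms of the hairpins, which are usually the less abundant strand, were followed as well. Of 10 such arms 5 were detected often enough to be tested. Their sequences are shown for the miR-30a, miR-30e and miR-30c hairpins, since these arms moved in different directions, with bases 2 to 8 in capitals.
miR-30a-3p: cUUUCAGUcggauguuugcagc
miR-30e-3p: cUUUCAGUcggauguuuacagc
miR-30c-1-3p: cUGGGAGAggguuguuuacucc
miR-30c-2-3p: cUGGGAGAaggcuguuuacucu

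miR-30a-3p went from 14.3, 24.4 and 26.1 units in mice 7, 9 and 10 at 0 h with DNase to 1.07, 2.85 and 3.66 at 96 h. At 96 h it was detected on 1 of 3 arrays with DNase and on 2 of 3 without. It fell by 4.32 glog2 with DNase (adjusted p = 7.20e-10 by limma) and by 3.95 without, and the unnormalized 0 h means were 8.54 and 6.51 times the 96 h means. miR-30e-3p was detected on no 96 h array and was called lower in both settings, with changes from -5.62 to -0.94 with DNase and from -5.74 to -0.89 without over the 9 scalings. miR-29c-5p was detected on no 96 h array either and was called lower in both, but under 7 of 9 scalings in each, with unnormalized 0 h means 1.75 and 1.69 times the 96 h means. All these arms changed downward under each of 9 scalings. Depletion left miR-30a-3p and miR-30e-3p undetected and both were called lower (adjusted p = 2.66e-07 and 5.10e-06 by limma), with changes from -3.45 to -1.02 and from -4.21 to -0.83 over the scalings.

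miR-30c-1-3p went the other way. Its signals were 0.375, 0.917 and 0.878 units in mice 7, 9 and 10 at 0 h with DNase and 13.5, 9.67 and 29.6 at 96 h, with no overlap. It rose by 1.82 with DNase (adjusted p = 0.00168 by limma) and by 2.59 without. The rise with DNase was called under 6 of 9 scalings and turned to -0.14 when the kept miRNAs alone were variance stabilized. Incubated with RNase it was at a mean of 6.48 units with 0.026 U and 8.19 with 0.67 U, against 0.0933 and no detection with 0 U. The rise was called (adjusted p = 2.84e-05 by limma), with changes from 0.23 to 2.87 over the 9 scalings. miR-30c-2-3p, which carries the same bases 2 to 8, changed by -0.80 with DNase, which was not called, and fell by 1.73 without, a fall that was called under 6 of 9 scalings. With RNase it changed by 0.14 (adjusted p = 0.783 by limma). Both arms come from hairpins that also give miR-30c-5p, which fell with storage.

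The members' profiles were close to each other over the 24 arrays. As a description, with n = 24 arrays that share 3 mice and the same normalization, the mean of the miR-29 members and the mean of the miR-30 members correlated at 0.967. Against the mean of the other members of its family, the correlation ran from 0.883 for miR-30d-5p to 0.999 for miR-29c-3p. Among 235 candidates detected on all 0 h arrays with small RNAs, the miRNAs most like the miR-29 mean were miR-195a-5p at 0.989, miR-106b-5p at 0.986 and miR-20b-5p at 0.986. For the miR-30 mean they were miR-130a-3p at 0.989, miR-3968 at 0.988 and miR-126a-5p at 0.985.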

How the data were processed

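RNA of 3 mouse livers was hybridized to 24 one-colour Agilent mouse miRNA arrays. Per the file headers, the authors read fluorescence intensity with Agilent Feature Extraction 10.10.1.1, which subtracts background and flags whether a miRNA was detected. These intensities are not scaled between arrays. The deposited table holds the authors' variance stabilized values on a log2 scale and was used as an alternative. An arsinh of a linearly rescaled signal was checked to return its columns (largest residual 1.03e-05).

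A miRNA's signal was its total gene signal where detected, otherwise the sum of its probe signals. Variance stabilizing normalization was rewritten in Python 3.11.15 (numpy 2.4.6, pandas 2.3.3, scipy 1.17.1) on all 1881 miRNAs, with 7 rounds that kept 90% of them. It differed from the deposited values by 0.0956 (SD). miRNAs detected on at least 5 arrays were tested with limma 3.58.1 (R 4.3.3) in 1 fit of 8 group means with a variance trend and no block. Tests were two-sided, adjusted by Benjamini-Hochberg over 631 miRNAs within each comparison, and called at an adjusted p under 0.05 and a change of at least 1. The fit was tested on simulated data. Where a member was not detected in a group, the fold is a bound against the lowest detected signal of each array or the member's own, whichever was higher. The number of arrays limits precision.

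The methods of the study name a rank test, run here as an alternative. Mouse numbers pair the arrays by animal. Deviations from the group means correlated by 0.0914 on average within a mouse and by -0.0449 between mice. The arrays of a mouse share a slide and a scan. The lowest correlation within a group was 0.849. For mouse 9 the RNase doses follow the descriptions, with RIN 6.0 at the lower and 2.4 at the higher dose, and doses by the titles were an alternative. The other alternatives were scalings, filters and each mouse left out.

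The members, the opposite arms, the miRNAs sharing a seed, the 3 most correlated miRNAs per family and the marker lists were chosen with earlier results of these data known. Sequences and positions come from RefSeq (GRCm38.p6), which matched 1608 of the array's miRNAs by name. Gene spans only were used. Figures were drawn with matplotlib 3.10.9.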

Additional observations from a re-analysis of the deposited data

How the results depend on the processing

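With 3 arrays a group the exact rank test cannot go below p = 0.1, and it called 0 members with storage with DNase, 0 with storage without DNase, 0 with depletion and 0 in stored against depleted RNA. In each of these comparisons it called 0 of all 631 miRNAs. The call count of 8 members for storage, with or without DNase, was 6 to 8 under every scaling, and that for depletion 6 to 8. Of all 631 miRNAs the scalings called 75 to 242 lower for storage with DNase, 83 to 233 without it and 43 to 154 for depletion. Mouse as a replicate block changed no call of a member: 8, 8 and 8 members stayed called for storage with DNase, storage without and depletion, and 4 in stored against depleted RNA. In the same order the block called 383, 383, 36 and 390 of all 631 miRNAs higher and 135, 146, 162 and 50 lower. Doses by the titles called 0 members with RNase, against 287 of all 631 miRNAs called higher and 2 lower. Filters, the deposited table and the fit of the compared groups alone reversed no member, but the last took the call of miR-29c-3p in stored against depleted RNA and left 3. There that fit called 373 of all 631 miRNAs higher and 40 lower.

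DNase omission at 96 h called 1 member under 75th percentile scaling on the commonly detected miRNAs, and 0 to 2 with a mouse left out. Of all 631 miRNAs that scaling called 57 higher and 36 lower, and the fit without mouse 10 called 80 higher and 72 lower. With RNase the 75th percentile of the commonly detected miRNAs called 8, quantile normalization 6, variance stabilization of the kept miRNAs 3 and normexp 2, all lower. In the same order 184, 146, 214 and 21 of all 631 miRNAs were called lower. In stored against depleted RNA spike-in scaling called 8 and no normalization 8, all higher, against 496 and 551 of all 631 miRNAs called higher. There the 75th percentile of detected miRNAs called 6, variance stabilization of the kept miRNAs 5 and normexp 4, all lower. In the same order 228, 255 and 44 of the 631 were called lower. The mixed calls were 7 (2 higher) under quantile normalization and 5 (2 higher) with every miRNA in the 75th percentile. Of the 631 these called 283 higher and 173 lower, and 302 higher and 144 lower. Leaving out a mouse gave 2 to 5, all higher, against 373 to 383 of the 631 called higher.

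The sign changes below had a call before or after. Beyond them, with RNase all 8 members lay below 0 under both 75th percentile scalings, quantile normalization, normexp and variance stabilization of the kept miRNAs, most of them without a call under the last 2 and none called with every miRNA in the 75th percentile. With RNase under the 75th percentile of detected miRNAs, miR-29a-3p was at -1.30, miR-29c-3p -1.27, miR-30a-5p -1.27, miR-30b-5p -1.25, miR-30c-5p -1.15, miR-30d-5p -1.29 and miR-30e-5p -1.17. Under quantile normalization they were at -1.86, -1.50, -1.66, -1.03, -1.47 and -1.56 for miR-29a-3p, miR-29c-3p, miR-30a-5p, miR-30b-5p, miR-30c-5p and miR-30d-5p. Under normexp miR-29a-3p was at -1.48 and miR-30a-5p at -1.12, and under variance stabilization of the kept miRNAs miR-30b-5p at -1.05 and miR-30e-5p at -1.08. In stored against depleted RNA, miR-29a-3p was at -2.96, -1.54, -3.77, -2.09 and -2.60 under the 75th percentile of detected miRNAs, that of all miRNAs, quantile, kept-miRNA variance stabilization and normexp. In the same order miR-29c-3p was at -1.44, -0.02, -1.51, -0.72 and -0.44, and miR-30c-5p at -2.62, -1.20, -2.74, -1.84 and -1.13. miR-30a-5p was at -2.26, -0.83 (no call), -2.91, -1.42 and -1.64. Without the second of these scalings, miR-30b-5p was at -1.41, -0.74, -1.0 and -0.18. miR-30e-5p was at -0.14 and -0.07 under the first and the fourth, and miR-30d-5p at 1.09 under spike-in scaling and 1.82 without normalization. With depletion miR-30d-5p was at 0.30 under the 75th percentile of detected miRNAs. Among the opposite arms, miR-30c-1-3p was at -0.14 (kept-miRNA variance stabilization) and miR-30c-2-3p at 1.02 (no normalization) with storage with DNase. With depletion miR-29c-5p was at 1.15 and miR-30c-2-3p at 1.36 under the 75th percentile of detected miRNAs, and with RNase miR-30e-3p was at -1.17 under kept-miRNA variance stabilization. The cause of these reversals was not tested.

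The members' median relative to that of all miRNAs kept its sign under the 9 scalings, between -5.92 and -2.81 for storage with DNase, -5.33 and -2.64 without it, -4.82 and -1.75 for depletion, -1.48 and -0.02 for RNase, and -2.84 and -0.51 for stored against depleted RNA. Without the detection filter, over all 1881 miRNAs, it turned to 0.18 for RNase and 0.98 for stored against depleted RNA, and was -3.44, -3.31 and -4.62 for storage with DNase, without it and depletion. Signals near background limit miR-29b-3p and miR-30e-5p in depleted RNA to bounds.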
